A study of Arabidopsis thaliana with 10 samples.

Results

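The peaks described here lay wholly inside a nuclear gene with their summit nearer to its 5′ end than to its 3′ end, and are called 5′-side peaks. A peak was a member when the deposited annotation placed it inside its assigned gene and its summit fell in the first 50% of that gene's length, on chromosomes 1 to 5. There were 1414 such peaks among 9604 nuclear peaks of line L1 and 1402 among 8952 of line L4, or 2816 of 18556 in all. Line L3 had 0 nuclear peaks and so no member. The choice used peak and gene positions only, and no fold or pileup.

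The peaks came from chromatin immunoprecipitation, in which crosslinked DNA bound by a protein is pulled down with an antibody and sequenced. Seedlings of Arabidopsis thaliana, grown for up to 12 days on sucrose plates, carried a YFP-LIMYB transgene, and an anti-GFP antibody that also binds YFP was used on 600 mg of tissue. All 10 samples are labelled as a LIMYB overexpression line and titled LIMYB-32, with 2 from L1, 4 from L3 and 4 from L4. The titles name replicates 1 and 2 in each line, and in L3 and L4 each replicate appears under the suffixes 1 and 2, whose meaning is not given. The promoter of the transgene and the relation between the lines are not given in the labels, and no control immunoprecipitation, input or untransformed plant is among the samples. Each line has 1 peak list and no column per sample, so no value has a replicate error and no test between lines or peak classes could be made. Intervals are 95% Wilson intervals on counts and cover counting error only, since neighbouring peaks are not independent. Depth per sample is unknown.

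LIMYB is a MYB-domain protein that acts with the ribosomal protein RPL10 downstream of NIK1, a receptor-like kinase of antiviral defence in plants. MYB proteins bind short DNA elements, often in promoters, but such proteins are also found inside transcribed regions such as leader sequences and introns. Whether a 5′-side peak was exonic, intronic or in a leader could not be stated, because no exon annotation was used, and no sequence is shown because no genome was used. Coordinates are those of the deposited lists, whose genome build is not given in the sources used here.

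Inside genes, more summits lay in the 5′ than in the 3′ part in both lines. Of the peaks inside genes, 56.6% in L1 (54.7 to 58.6, 1414 of 2497) and 56.3% in L4 (54.3 to 58.2, 1402 of 2490) were 5′-side peaks. Counts rose along the gene to the stretch from 40% to 50% of its length, which held 387 peaks in each line, and were low at both ends. The first 10% held 114 peaks in L1 and 110 in L4, and the last 10% held 55 and 61. Peaks that crossed a gene end were not counted as inside, and their part in the low counts at the ends was not tested.

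**Figure D1:**
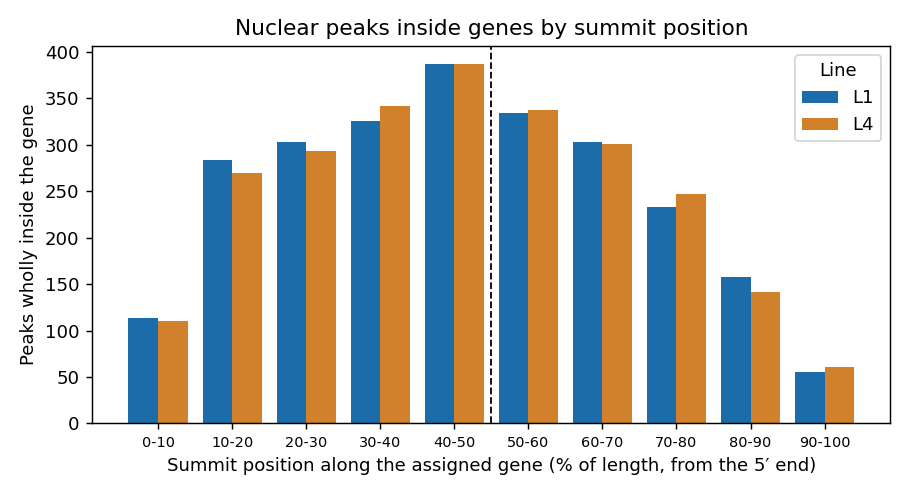
Number of nuclear peaks wholly inside their assigned gene (vertical axis) by summit position in stretches of 10% of gene length from the 5′ end (horizontal axis), with L1 in blue and L4 in orange. The dashed line marks the middle of the gene, and in both lines the tallest bars, 387 peaks each, stand just to its left.

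The excess on the 5′ side has to be read with the way peaks were assigned. Each peak was given by the authors to a gene by nearest location, and a peak late in one gene can lie closer to the start of the next. Among peaks not inside their assigned gene, 195 in L1 and 205 in L4 lay wholly within another gene named in the lists with the summit in its 3′ part. With the summit in the 5′ part there were 4 in each line. Adding these does not bring every such case back, since only the 10010 nuclear genes named in the lists could be searched. The imbalance between the gene parts and the assignment cannot be told apart.

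The rule caps the distance to the gene start at 50% of the gene length, so distances are given as a description. The median distance from the summit to the gene's 5′ end was 730 bp in L1 (quartiles 464 and 1137.8) and 777 bp in L4 (484 and 1160.5). Of the members, 67.5% in L1 and 66.3% in L4 had their summit within 1000 bp. In the first 250 bp there were 114 members in L1 and 112 in L4, against 325 and 301 between 500 and 750 bp. At 3000 bp or more there were 31 and 26, in genes with a median length of 9791 and 10027 bp.

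The genes that held these peaks were longer than those with a peak in the 3′ part. Their median length was 2673 bp in L1 and 2785 bp in L4, against 2292.5 and 2276.5 bp for genes with a peak in the 3′ part. Genes over 5000 bp made up 13.0% of the hosts in L1 and 14.6% in L4, against 5.81% and 5.9% for the 3′ part. ATM, a kinase gene of the DNA damage response and the longest host at 31258 bp, held a pair of L1 members 3889 and 13315 bp from its start (folds 9.26 and 7.31). It also held an L4 member at 13245 bp, with a fold of 15.66, which overlapped an L1 peak. No correction for gene length was made, and the length of all genes was not computed. In both gene parts a peak of at least 200 bp had to lie wholly inside, and the effect of this on host length was not tested. Which genes count as hosts in the 3′ part also depends on the assignment described above. The length difference and the assignment cannot be told apart.

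The members were spread over all chromosomes in much the same share. They were between 14.2% (chromosome 4) and 15.1% (chromosomes 1 and 2) of the peaks of a chromosome in L1, and between 14.7% (chromosome 3) and 16.6% (chromosome 1) in L4. The interval of every chromosome overlapped those of the others in the same line. In all, 1387 genes held a member in L1 and 1371 in L4. Of these, 1360 and 1338 held a single member. In 80.7% of L1 hosts and 83.3% of L4 hosts, the member class was the only kind of peak assigned to the gene. A further peak within 1000 bp upstream was assigned to 68 L1 hosts (4.9%) and 54 L4 hosts (3.94%). A peak across the 5′ end was assigned to 20 (1.44%) and 14 (1.02%). The share of all genes with such peaks was not computed, so these shares are not read against a background.

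Peak strength was about that of other nuclear peaks. Fold enrichment, the authors' ratio of signal to a background that the file headers do not name, had a median of 8.88 in L1 members (quartiles 7.35 and 10.9) and 11.7 in L4 members (9.56 and 14.9). In the 3′ part the medians were 8.67 and 11.7, across the 5′ end 9.28 and 11.7, and over all nuclear peaks 8.72 and 11.7. Pileup, the number of overlapping fragments at the summit, had a median of 18 in L1 members and 17 in L4 members. The −log10 q-value had medians of 9.84 and 11. Median widths were 218 (L1) and 234 bp (L4), and widths stopped at 200 bp, the value of 275 L1 members (19.4%) and 240 L4 members (17.1%). The widest members were in AT1G40104 (950 bp), PERK7 (570 bp) and RIP2 (557 bp) for L1. In L4 they were in AT1G51530 (897 bp), AT2G07749 (897 bp) and VIK, a protein kinase gene (769 bp).

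About 4 in 10 members were also found in the other line, somewhat less than for peaks as a whole. In L1, 559 of 1414 members (39.5%, 37.0 to 42.1) overlapped an L4 peak by at least 1 bp, against 45.0% of all nuclear L1 peaks. In L4, 562 of 1402 (40.1%, 37.6 to 42.7) overlapped an L1 peak, against 48.2% of all nuclear L4 peaks. Peaks in the 3′ part gave 42.0% (39.1 to 45.0) in L1 and 42.6% (39.6 to 45.5) in L4, and their intervals overlapped those of the members. Peaks across the 3′ end gave 54.9% and 55.7%, the highest among the classes with over 10 peaks. No test was made, and no background common to both lines was measured.

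Where members overlapped, the sites were nearly the same in position. In 537 pairs both peaks were 5′-side peaks of the same gene, in 530 genes. Their summits lay a median of 21 bp apart (quartiles 8 and 48), and 411 pairs (76.5%) were within 50 bp. The remaining shared members met a peak of another class: 23 in L1, of which 18 met a 3′-side peak and 5 a peak across the 5′ end, and 26 in L4. Another 36 genes held a member in each line that did not overlap. In those genes the nearest summits were 211 to 3689 bp apart (median 736 bp).

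In both lines overlap was highest at the highest folds, but in L1 it did not rise over the lower groups. The members of each line were ranked by fold and cut into 5 equal groups. In the top L1 group, with folds from 11.54 to 32.29, 73.8% (68.3 to 78.5) overlapped an L4 peak. In the L1 groups below it the shares were 42.0%, 27.6%, 24.4% and 30.0%, the last being the lowest folds. In L4 the share climbed step by step from 28.1% to 35.2%, 38.6%, 47.5% and 51.1% (45.2 to 56.9). The strongest L4 members, with folds from 16.35 to 41.36, were thus without an L1 peak in 137 of 280 cases. Their overlap of 51.1% was near the 48.2% of all nuclear L4 peaks, which were not split by fold. Over all nuclear L1 peaks the share was 45.0%.

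**Figure D2:**
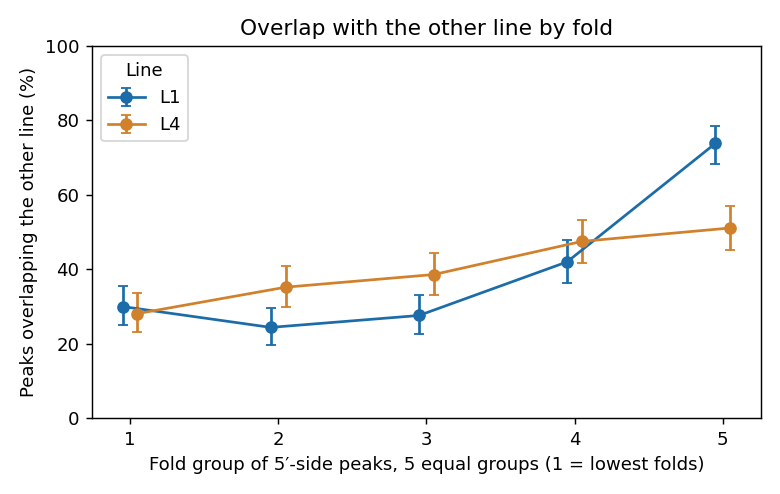
Share of 5′-side peaks that overlapped a peak of the other line (vertical axis, percent) for the members of each line in 5 equal groups by fold (horizontal axis, lowest to highest), with 95% Wilson intervals as bars. L1 (blue) lies at 30.0%, 24.4%, 27.6% and 42.0% and then reaches 73.8%, while L4 (orange) climbs from 28.1% to 51.1%.

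Among the 537 pairs the median fold was 10.2 in L1 and 12.4 in L4, and the L4 value was higher in 385 pairs (71.7%). The sources do not say whether folds of the lists are on 1 scale, so this order does not show stronger binding in L4. Across pairs, folds had a Spearman's rho of 0.452 and a Pearson's r of 0.494. These describe 537 sites that share the same libraries, and no p is given.

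The pair with the highest lower fold lay inside PERK8, a gene for a receptor-like kinase with a proline-rich extracellular part. PERK8 (AT5G38560, plus strand) had a fold of 32.29 and a pileup of 113 in L1, at chromosome 5, 15439647 to 15440028. In L4 it had a fold of 39.76 and a pileup of 163, at 15439641 to 15440044. The summits were 591 and 597 bp from the start of a gene of 3916 bp. The highest fold of L4, 41.36 in AT4G21700, met an L1 peak with a fold of 5.74, so a high fold in one list did not imply one in the other.

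Next by the lower of their folds came AT5G01280 (29.1 in L1 and 31.71 in L4), AT5G46780 (26.05 and 34.71) and AT4G37850 (29.48 and 24.71). AT5G01280 had its peak at chromosome 5, 115281 to 115559 in L1, AT5G46780 at chromosome 5, 18979134 to 18979492, and AT4G37850 at chromosome 4, 17797294 to 17797600. All 3 summit pairs lay between 317 and 825 bp from the gene start and within 10 bp of each other. AT1G41920 followed, with folds of 25.35 and 23.75.

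The other 5 of the 10 highest pairs included 3 genes with a symbol. XTH24, for an enzyme that remodels xyloglucan in the cell wall, had an L1 fold of 22.59 and an L4 fold of 22.57, with pileups of 61 and 29. YSL7, a transporter gene of the yellow stripe-like family, had 22.46 and 25.0, with its summits at 49.7% of the gene, just inside the boundary. CPK5, for a calcium-dependent protein kinase of immune signalling, had 23.39 and 22.0, at chromosome 4, 16802244 to 16802610 in L1. AT3G56340 had 22.48 and 22.57, and AT4G16380 had 22.45 and 40.91. Within these 10 pairs the L4 fold was the higher one in 6, and all 10 pairs overlapped by at least 228 bp.

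**Figure D3:**
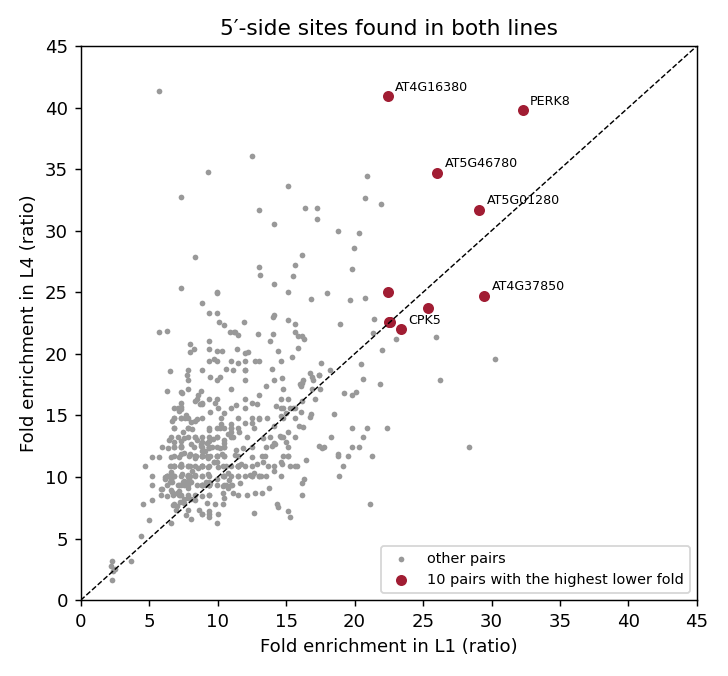
Fold enrichment in L4 (vertical axis) against L1 (horizontal axis) for the 537 pairs of overlapping 5′-side peaks of the same gene, with the line of equal folds dashed. The 10 pairs with the highest lower fold are in red, led by PERK8 at 32.29 and 39.76.

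PERK8 belongs to a family of similar kinases, described here after its values were seen and not ranked against other families. Of 14 genes with a PERK symbol, the same 5 had a 5′-side peak in L1 and in L4, and the peaks overlapped in each. Over all nuclear protein-coding genes, 5.03% had a 5′-side peak in L1, 4.97% in L4 and 2.05% in both. PERK10 had an L1 fold of 19.94 and an L4 fold of 28.57, PERK9 had 12.95 and 21.58, PERK7 had 19.55 and 11.68, and PERK4 had 8.02 and 10.9. Their summits were 455 to 975 bp from the start. The proline-rich part of a PERK protein lies at its N-terminal side, before the membrane span and the kinase domain. PERK13 had a peak in L4 with its summit at 58.64% of the gene (fold 13.23), outside the class. The PERK genes resemble each other, and whether their copies share reads was not tested.

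Within 250 bp of the gene start, 43.9% of L1 members (35.1 to 53.0) and 42.0% of L4 members (33.2 to 51.2) overlapped the other line. The shares over all members were close to these, at 39.5% and 40.1%. The sites named next were picked from overlapping pairs only, so their recurrence follows from the choice. The pair nearest to a start was in AT5G65520, with summits 99 and 103 bp from it (L1 fold 8.7, L4 fold 15.96). Then came AT5G57565 (107 and 122 bp, folds 8.4 and 11.68), AT3G51360 (102 and 128 bp, 11.49 and 10.12) and CPK20, another calcium-dependent kinase gene (129 and 108 bp, 12.01 and 18.68). In AT1G05140 the L1 summit was 131 bp and the L4 summit 77 bp from the start, with folds of 20.62 and 13.23. These peaks stopped at or short of the annotated 5′ end, so they count as inside although they adjoin the promoter.

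Several strong members appeared in a single line. In L1 the highest fold without an L4 peak was 23.14, in AGC1.7, a protein kinase gene. It was followed by AT5G51800 (18.69), MEE48 (18.27), AT5G07970 (18.18) and ESE3, an ethylene response factor gene (17.18). In L4 the highest were AT1G22000 (39.33), SIP1 (33.33), MOR1, for a protein that organises microtubules (31.91), TMKL1, a receptor kinase-like gene (31.43), and AT4G20200 (30.43). The 5 L4 values all exceeded the 5 L1 values, but the lists' scales may differ.

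A few genes held a row of members. AT2G08986 on chromosome 2 had 4 in L1 and 3 in L4, with folds of 1.83 to 2.5 and 2.35 to 2.76 and pileups of 228 to 309 and 194 to 252. Its neighbour AT2G07981 had folds of 2.32 and 1.68. Both genes lie between 3614986 and 3626460. Of the 6 L1 members and 4 L4 members with folds under 3, all were in these genes but 1, an L1 peak of AT1G40104 (2.32). AT1G40104 on chromosome 1 had 3 members in L1 (folds 2.32 to 4.38). CYP714A1, a cytochrome P450 gene of gibberellin metabolism, also had 3 in L1, with folds of 5.28, 6.91 and 7.2, and none overlapped an L4 peak. Since the fold is a ratio, a high pileup with a low fold goes with a high estimated background. Whether these genes share reads with other copies was not tested.

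Near the boundary at the middle of the gene, folds were much alike on both sides. Members with summits at 45 to 50% of the gene had a median fold of 8.88 in L1 (190 peaks) and 11.7 in L4 (189). Peaks just outside, at 50 to 55%, had 8.68 (185) and 11.7 (178). The share that overlapped the other line was 42.6% inside and 44.3% outside in L1, and 40.2% and 47.8% in L4. The nearest inside were AT5G14890 at 49.99% (fold 8.66) and MAK10 at 49.96% (10.1) in L1, and SRF5 at 49.97% (7.75) and LAC13 at 49.93% (8.33) in L4. The nearest outside were ZPR1, exactly halfway (8.68), and EMB2729 at 50.01% (6.06) in L1. In L4, AT2G41835 (27.24), AT5G30341 (14.53) and VDAC2 (10.9) had summits exactly halfway and were left out, and PAP85 followed at 50.05% (10.19).

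Photosynthetic genes, which the design text of the study names, held few 5′-side peaks, and the interval of every photosynthetic list included the share of all genes (5.03% in L1 and 4.97% in L4). Of 12 photosystem I genes and 26 genes of tetrapyrrole and chlorophyll synthesis, 0 had one in either line (upper bounds 24.2% and 12.9%). Of 21 light-harvesting antenna genes, 0 had one in L1 and 1 in L4, LHCA2, a photosystem I antenna gene (fold 9.34). Of 22 Calvin-Benson cycle genes, the carbon fixation pathway, RBCS3B, for a Rubisco small subunit, had one in L4 (12.05). Of 13 photosystem II genes, PSBQ-2 had one in L1 (10.58) and PSBP-2 in L4 (12.31), both for proteins of the oxygen-evolving complex. RBCS3B, PSBP-2 and PSBQ-2 have close copies, and how reads were shared among them is not given.

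Among the photosynthetic lists, electron transport was the one in which the same genes had a member in both lines. Of 15 genes, FNR2 and FD3 had overlapping 5′-side peaks in L1 and L4 (13.3%, 3.74 to 37.9, against 2.05% of all genes). FNR2, for a leaf ferredoxin-NADP reductase, had an L1 fold of 12.53 and an L4 fold of 11.64, with pileups of 24 and 17 and summits 572 and 551 bp from the start. FD3, for a ferredoxin known mainly from roots, had folds of 6.79 and 12.45 and pileups of 13 and 16. With 2 genes of 15, the interval is wide.

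For the translation genes found by symbol, the intervals of both lists included the shares of all genes, 5.03% in L1 and 4.97% in L4. Ribosomal protein genes without a matching symbol or synonym were not searched, so that list is not complete. Of 45 ribosomal protein genes found by symbol, 3 had a member in L1 (6.67%, 2.29 to 17.9) and 1 in L4 (2.22%, 0.393 to 11.6). RPL23AB, of the large subunit, had overlapping peaks (L1 fold 7.1, L4 fold 15.62). RPS5B (7.21) and RPS5A (8.88), a pair of similar small-subunit genes, had peaks in L1. Of 26 translation initiation factor genes, EIF4G, for a scaffold of the cap-binding complex (7.69), and eIF6B (7.14) had one in L1. In L4, eIF4E3, a cap-binding factor gene (9.34), had one. The shares of that list were 7.69% in L1 (2.14 to 24.1) and 3.85% in L4 (0.682 to 18.9).

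Within the LIMYB pathway, the LIMYB gene itself was the sole host among 7 genes. That is 14.3% of the list in L1 (2.57 to 51.3) and 0% in L4 (0 to 35.4). Over all genes the shares were 5.03% and 4.97%, and the intervals of the list include them. AT5G05800, on the minus strand of chromosome 5, had an L1 peak at 1744054 to 1744365 with a fold of 6.15 and a pileup of 22. Its summit was 1047 bp from the start, at 48.49% of the gene. The overlapping L4 peak (fold 13.31, pileup 33) had its summit at 70.54% and so was not a member. NIK1, NIK2 and NIK3 and the RPL10 genes had no 5′-side peak in either line. Outside the class, L1 had a peak across the 3′ end of RPL10B (fold 8.35). It also had a peak in SAG24, an RPL10 gene, with its summit at 59.3% of the gene (fold 8.5). Neither overlapped an L4 peak. The transgene carries the same coding sequence, so reads of the gene and the transgene cannot be told apart.

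Defence, silencing and clock genes had scattered members. Of 17 RNA silencing genes, AGO4, an Argonaute of DNA methylation, had overlapping peaks (folds 6.71 in L1 and 7.72 in L4). AGO2, an antiviral Argonaute, had one in L4 (16.83) and SGS3, of small RNA amplification, in L1 (6.79). The share of the silencing list with a member was 11.8% (3.29 to 34.3) for either line taken alone. Over all genes it was 5.03% for L1 and 4.97% for L4. A member in both lines was held by 5.88% of the list (1.05 to 27.0), against 2.05% of all genes. The intervals of the list include the shares of all genes. Of 22 immunity genes, for pattern recognition and salicylate signalling, FRK1, a flagellin-induced kinase gene, had one in L1 (8.35) and MPK6, a mitogen-activated kinase gene, in L4 (12.45). Of 13 clock genes, GI had one in L1 (7.31), and ELF3 (9.34) and ZTL (7.78) in L4. Of the listed immunity and clock genes, 0 had one in both lines, where 2.05% of all genes did. With 22 and 13 genes, the intervals of both lists include that share. The silencing and immunity lists were written by hand and are not complete. AGO6, another Argonaute gene, is outside the silencing list and is named here after its values were seen. It had overlapping peaks, with an L1 fold of 20.36 and an L4 fold of 12.45, so AGO4 was not the only such Argonaute gene. CPK5, described above as a kinase gene of immune signalling, is outside the immunity list and had overlapping peaks in both lines.

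**Figure D4:**
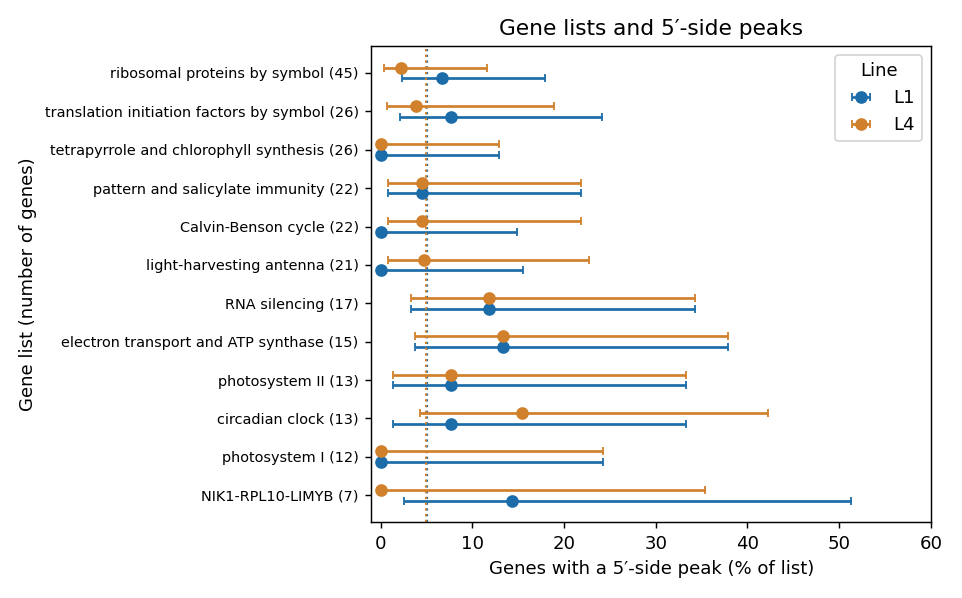
Share of each gene list with a 5′-side peak (horizontal axis, percent, with 95% Wilson intervals) in L1 (blue) and L4 (orange), with the number of genes in brackets. Dotted lines mark the share of all nuclear protein-coding genes, 5.03% in L1 and 4.97% in L4, and they pass through the intervals of all 12 lists.

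Among symbol families with at least 20 genes, calcium-dependent protein kinases had the highest share of genes with a member in both lines. Of 62 families ranked by that share, CPK was first with 4 of 29 genes (13.8%, 5.5 to 30.6), against 2.05% of all genes. Ranks within a line differed: UBP genes had 6 of 29 (20.7%) in L1, above the 13.8% of CPK there. GRF genes had 5 of 21 (23.8%) in L4, above the 17.2% of CPK. Over all genes the share was 5.03% in L1 and 4.97% in L4. The 4 CPK genes with a member in both lines were CPK5, CPK6 (folds 20.9 in L1 and 14.01 in L4), CPK20 and CPK28 (7.34 and 11.9). Each had overlapping peaks. Ubiquitin-specific protease genes (UBP) came next with 3 of 29, namely UBP27 (12.02 and 16.3), UBP19 (15.14 and 11.68) and UBP6 (6.27 and 10.12). The bZIP transcription factor genes had 3 of 31, led by BZIP34 (25.91 and 21.33), then bZIP19, a regulator of zinc supply (16.45 and 11.36), and BZIP24 (7.31 and 12.45).

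CIPK and GRF genes had 2 of 21 each. CIPK15 (15.91 and 14.13) and CIPK21 (11.11 and 13.23) encode kinases that act with calcineurin B-like calcium sensors. GRF5 (12.22 and 20.14) and GRF4 (10.38 and 7.78) encode growth-regulating factors, and the GRF symbol also covers unrelated 14-3-3 genes. In 32 of the 62 families no gene had a member in both lines, to be read against the 2.05% of all genes. The order comes from ranking these data, the intervals of the families named overlap, and no family was tested.

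The strand of the host genes differed between the lines, a pattern noticed in these data. In L1, 731 of 1414 members (51.7%, 49.1 to 54.3) were in plus-strand genes, and in L4 it was 822 of 1402 (58.6%, 56.0 to 61.2). Of the 10010 nuclear genes named in the lists, 51.0% were on the plus strand. In L4, over all folds together, the share was higher in the members that had no L1 peak: 525 of 840 (62.5%, 59.2 to 65.7) were in plus-strand genes. L4 members that overlapped an L1 peak had 52.8% (48.7 to 56.9), and L1 members without overlap had 51.5% (48.1 to 54.8).

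The share in L4 was above 50% on every chromosome, and it did not rise steadily with fold. Among L4 members without overlap, the share in plus-strand genes lay between 59.5% (chromosome 3) and 66.0% (chromosome 5). From the lowest to the highest of the 5 fold groups it was 58.4%, 62.1%, 64.5%, 58.5% and 70.8% (62.7 to 77.8 in the last, 97 of 137). It was 46.2% (34.6 to 58.1) within 250 bp of the gene start and 67.9% (62.4 to 72.8) at 1000 bp or more. L4 peaks without overlap in the 3′ part had 57.4% (53.5 to 61.3), and those upstream and downstream had 49.1% and 50.1%. Across the 5′ end the share was lower, at 45.9% (40.2 to 51.7) without overlap and 43.8% (39.5 to 48.2) for all L4 peaks of that class. Peaks across the 3′ end had 57.4% in L1 and 58.3% in L4, so a share above 50% was not limited to inside peaks of L4. No cause was tested.

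**Figure D5:**
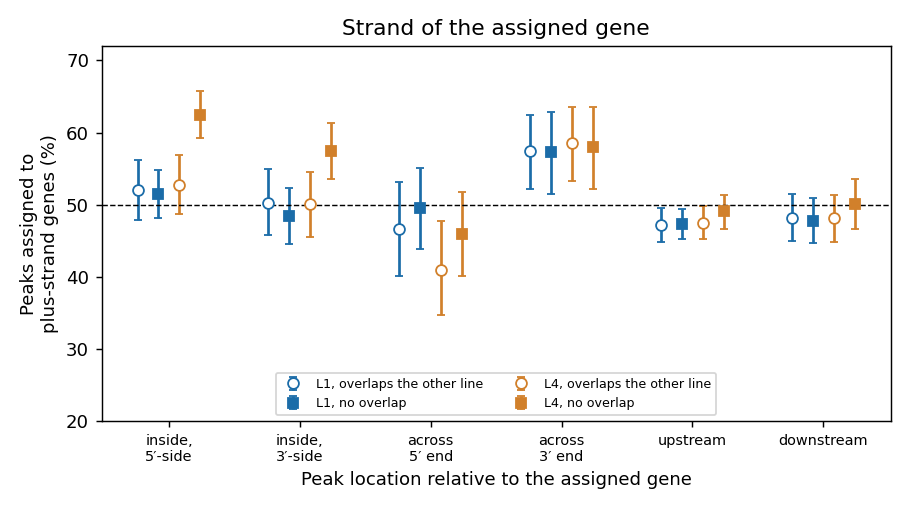
Share of peaks assigned to plus-strand genes (vertical axis, percent, with 95% Wilson intervals) by peak location (horizontal axis), with L1 in blue and L4 in orange, and open circles for peaks that overlap the other line and filled squares for those that do not. The L4 square for 5′-side peaks, at 62.5%, is the highest point, and the dashed line marks 50%.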

How the data were processed

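The authors deposited 1 annotated peak list for each of 3 lines, and no column names a sample. Peaks were called with MACS2, per the submitters' processing notes. How it was run, what reads were aligned with and to which build, any control track and any pooling of samples: not given in the sources used here. Per the file headers, each deposited row gives a pileup signal, a fold ratio, a q-value on a −log10 scale, and positions in bp. Assignment was by nearest location to a gene with a protein-coding transcript, per the file headers.

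Rows were reduced to 1 per position. A peak with several assigned genes (3 members in each line) counted as a member if any of its rows met the rule. A summit exactly halfway (1 in L1, 3 in L4) was not a member. Shared means an overlap of at least 1 bp with a nuclear peak of the other list. Symbols and the 27432 nuclear protein-coding genes were taken from RefSeq (assembly TAIR10.1), used for names only; 2180 of 2192 host genes matched. Gene lists hold loci written by hand, with ribosomal proteins and initiation factors found by symbol or synonym. Genes named are the 10 highest pairs by lower fold, the 5 highest unshared members per line, genes with 3 or more members, the pairs nearest the start, list members, the 3 widest members per line, those nearest the middle of the gene, and the 5 top families with up to 4 genes each. Members, lists and rules were chosen with earlier results of these data known. Shares have 95% Wilson intervals (scipy 1.17.1, pandas 2.3.3, numpy 2.4.6, Python 3.11.15; figures with matplotlib 3.10.9). Placement and overlap were checked on simulated peaks. Alternatives were stricter fold and q-value limits, the peak midpoint, the first of 3 equal parts of the gene, peaks with several genes left out, and other definitions of overlap.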

Additional observations from a re-analysis of the deposited data

Results flagged for a closer look

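Organelle peaks stand outside the nuclear comparisons, and no control sample gives a level for them. By the same rule, 21 of 73 plastid peaks and 9 of 82 mitochondrial peaks of L1 lay inside a gene in its 5′ part. In L4 these were 23 of 93 and 5 of 100. L3 had 1 of 12 plastid peaks, inside ATCG00120, with a fold of 11.45 and a pileup of 19. In the same gene L1 had a fold of 4.95 with a pileup of 286, and L4 a fold of 4.41 with a pileup of 399. The plastid peaks of L1 and L4 had median folds of 3.01 and 2.67 and median pileups of 164 and 236.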

How the results depend on the processing

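Of 61 alternative values for 9 results, 38 stayed within the reported interval (or within 1.5 times for counts) and 23 moved. Every value below shares its list with the reported one, and the stricter limits and the shorter stretch of gene keep fewer peaks by construction. The fold and q-value limits cut both lists, so overlaps with a weaker peak of the other line no longer counted. With folds at or above the list median, members were 16.53% of L4 peaks, and median folds were 10.78 in L1 and 14.79 in L4. Under this limit 36.45% of L1 members and 35.68% of L4 members were shared. A member was then found in 726 genes in L1, 737 in L4 and 269 in both. With a −log10 q of 10 or more, members were 13.83% of L1 peaks, 36.84% of L4 members were shared, median folds were 10.96 and 14.79, and the genes numbered 694, 752 and 281. In the first of 3 equal parts of the gene lay 8.403% of L1 peaks and 8.735% of L4 peaks, in 799, 769 and 307 genes. With summits within 50 bp, 29.63% of L1 and 29.96% of L4 members were shared, and with a reciprocal overlap of 50%, 37.52% of L4 members. Leaving out chromosome 2 from 3.2 to 3.7 Mb, chosen after seeing the data, moved none of the 9. No paired analysis was possible because the values come in 1 list per line with no replicate columns, and no replicate could be left out for the same reason. Depth is unknown, so sites missing from a list may be weak rather than absent.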

Other observations

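Fold and pileup were closely tied within a list. Among L1 members whose pileup was held by at least 10 members, 700 of 1300 (53.8%) had the commonest fold for that pileup, and in L4 it was 709 of 1265 (56.0%). At the commonest L1 pileup, 16 fragments, 76 of 135 members had a fold of 8.35. At that of L4, 13 fragments, 99 of 140 had a fold of 10.12. Many members thus share the same fold, and the medians given for different peak classes can coincide exactly.

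Shared and unshared members differed in strength. The median pileup was 22 in shared and 17 in unshared L1 members, and 19 and 16 in L4. The median distance from the gene start was 741 and 722 bp in L1, and 730 and 810 bp in L4.

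Other symbol families below the 5 named are given here after their values were seen. Of 35 genes with a symbol starting NF, which takes in the CCAAT-binding NF-Y factors, 3 had a member in both lines (8.57%, 2.96 to 22.4, against 2.05% of all genes). They were NF-YC3 (folds 16.32 in L1, 21.2 in L4), NF-YC2 (10.2, 14.01) and NF-YA4 (14.76, 13.23), while NF-YA7 had one in L1 only (6.27). Of 24 IAA genes, auxin response repressors, 2 had a member in both lines (8.33%, 2.32 to 25.8). They were IAA14 (9.35, 13.85) and IAA16 (7.31, 12.5), while IAA32 (13.64) and IAA28 (7.41) had one in L1 only. No family was tested.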
